A study of Owenia fusiformis with 14 samples.

Results

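The genes described here encode the BMP ligands of the annelid *Owenia fusiformis*, *bmp2/4* (transcript OFUSG12159.1) and *bmp5-8* (transcript OFUSG23310.1). They were taken by identifier, as the study pairs these with gene names, and are 2 of the 27040 genes measured. Each is listed with 1 transcript of the 31977 that all libraries share. The *bmp2/4* transcript is 3833 bases long and the *bmp5-8* transcript 1775 bases. In all 14 libraries the estimated counts of both transcripts were whole numbers within 1e-06, as were those of 56.3% of the transcripts tested. The identifiers matched 0 entries of the RefSeq gene table used here, and genome positions and sequences of the genes are not given.

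BMPs are secreted ligands of the TGF-β superfamily. They bind complexes of type I and type II receptors at the cell surface, and the receptors phosphorylate SMAD1/5/8, which enters the nucleus and regulates target genes. Chordin is a secreted antagonist that binds the ligands outside the cell and keeps them from their receptors. Ligands of the BMP2/4 type, which include Decapentaplegic of *Drosophila*, pattern the dorsoventral axis in many bilaterians, and ligands of the BMP5-8 type, which include Glass bottom boat of *Drosophila*, can form heterodimers with them in that species.

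Whole embryos were collected as blastulae at 6 hours post fertilisation (hpf), and their mRNA was sequenced as bulk libraries, 2 per condition. Embryos treated between 4 and 6 hpf with 20 µM DMH1, a small molecule inhibitor of BMP type I receptors, were compared with embryos in 0.2% DMSO, its solvent, over the same hours. Over these hours other embryos received recombinant zebrafish BMP4 (rBMP4) or recombinant Activin A (rActivin A), which signals through the Activin branch of the superfamily, at 1000 ng/µl and 75 ng/µl as the labels give them, and both groups were compared with mock embryos, which received the solvent of the proteins. Treatment with 40 µM SB431542, an inhibitor of Activin and TGF-β type I receptors, lasted from 3 to 6 hpf, with 0.4% DMSO over those hours as its control. The sample titles spell this inhibitor SB435421, while the treatment protocol and the study name SB431542. The volume unit of the protein doses differs within the study's own material, which also gives them in ng/ml. At 1000 ng/µl the rBMP4 dose would exceed the stock concentration the study states, so the label unit cannot hold for it. The working concentration of rActivin A remains uncertain. The labels name no genetic change in any group, and nothing in the labels says whether replicates came from separate cultures, so p-values measure the spread between these libraries, which may be technical.

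Over the shared transcripts, library totals ran from 9416563 estimated counts in rActivin A replicate 2 to 59915591 in DMH1 replicate 1. The DMH1 libraries held 59915591 and 51003928 counts, against 19312756 and 22729492 in 0.2% DMSO. They were also quantified over 31978 transcripts, against 31979 in all other libraries. In every comparison of DMH1 with 0.2% DMSO below, treatment therefore cannot be told apart from depth or from this difference. The shallowest library, rActivin A replicate 2, also had the shortest mean fragment length, 313 bases against 348 to 371 in the others, and the fewest transcripts with a count, 22559 against 25682 to 27652. Ligand counts were high enough to set counting error well below the largest differences. The smallest was 310 counts for *bmp2/4* in rActivin A replicate 2, with a 95% Poisson interval of 276 to 347 that covers counting error only. Levels of a gene are given below as CPM, the counts divided by the library total and multiplied by 1000000, with totals scaled by TMM over the 14 libraries, and the 2 ligands are compared with each other only in TPM, the like measure per transcript length. In these bulk samples, fewer cells that express a gene and less RNA per cell cannot be told apart.

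Within every library *bmp5-8* was the more abundant ligand per length. It reached 73.5 to 138 TPM, which placed it above 93.2% to 96.8% of the transcripts of a library. *bmp2/4* reached 5.64 to 29.9 TPM, above 63.7% to 86.6% of the transcripts. The lowest values of *bmp2/4* were those of the rBMP4 and rActivin A libraries, and the other 10 libraries held between 21.4 and 29.9 TPM.

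The transcript of *bmp2/4* was less abundant after both recombinant ligands than in mock embryos. The rBMP4 libraries held 387 and 388 counts of *bmp2/4*, or 21.8 and 16.8 CPM, against 2040 and 1798 counts, or 78.7 and 78.6 CPM, in the mock libraries. Both rBMP4 libraries were thus far below both mock libraries. The level fell by 2.02 on the log2 scale (SE 0.118, 95% interval −2.29 to −1.75, adjusted p = 8.5e-05, quasi-likelihood test of edgeR, adjusted after Benjamini and Hochberg over 23432 transcripts), which is 4.06-fold lower after rBMP4. In this comparison 1.08% of the transcripts tested were called at an adjusted p below 0.05, 0.499% as higher and 0.585% as lower, and *bmp2/4* had the 20th smallest p.

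The rActivin A libraries held 525 and 310 counts of *bmp2/4*, or 31.3 and 32.1 CPM, against the same mock libraries at 78.7 and 78.6 CPM. The groups did not overlap, although the rActivin A libraries differed in depth and in fragment length. The level fell by 1.32 on the log2 scale (SE 0.117, 95% interval −1.58 to −1.05, adjusted p = 0.00022), 2.49-fold lower after rActivin A. The background was much larger here, with 29.3% of the transcripts called, 13.4% higher and 15.9% lower. Without rActivin A replicate 2, the library of low depth, and in the fits that left out any other of the 10 libraries, the log2 change lay between −1.33 and −1.31.

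The decrease was smaller after rActivin A than after rBMP4. The rActivin A mean of 31.7 ± 0.563 CPM stood against an rBMP4 mean of 19.3 ± 3.53 CPM (SD, n = 2 each), with both rActivin A libraries above both rBMP4 libraries. The difference was 0.70 on the log2 scale (SE 0.120, 95% interval 0.43 to 0.98, adjusted p = 0.0042 in the same edgeR fit), where 27.5% of all transcripts were called and 12.5% as higher. The proteins were applied at different doses, so this compares the libraries as treated and not the ligands at a matched dose. The comparisons with mock share their control libraries.

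**Figure D1:**
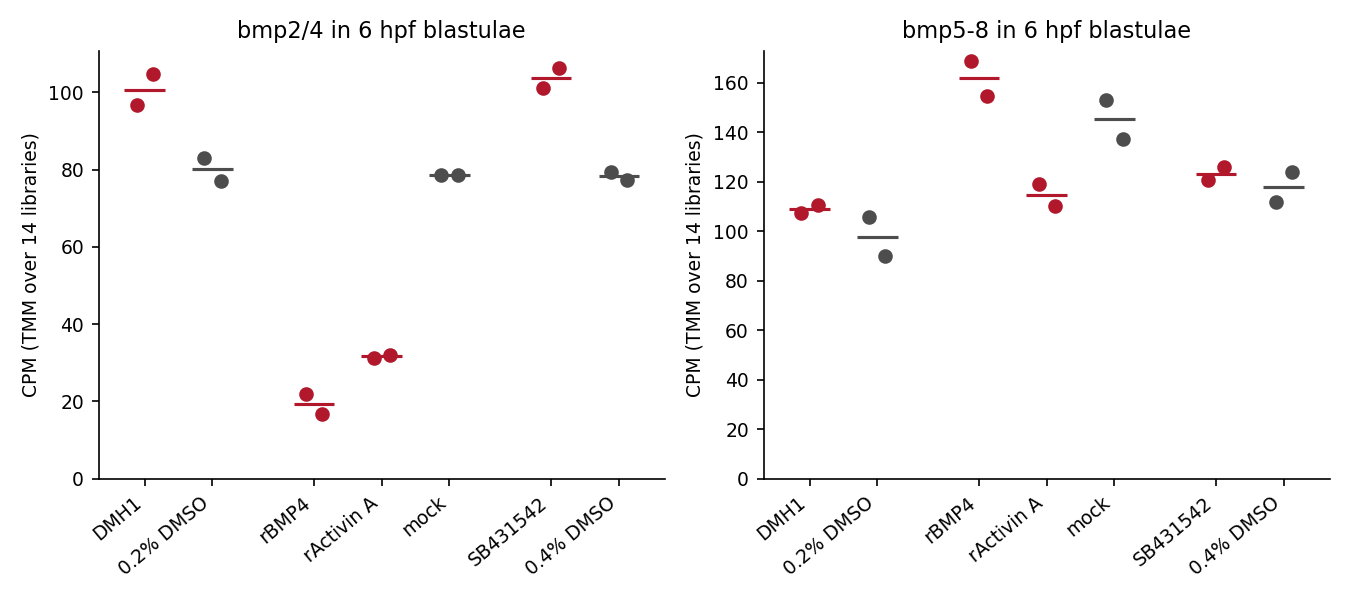
Levels of *bmp2/4* (left) and *bmp5-8* (right) in CPM, scaled with TMM over 14 libraries, with 1 point per library, a line at each mean, treated groups in red and their controls in grey. The rBMP4 and rActivin A libraries lie between 16.8 and 32.1 CPM for *bmp2/4* and all others at 77.1 CPM or above, while for *bmp5-8* the levels run from 89.8 to 169 CPM.

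With both receptor inhibitors the *bmp2/4* values were above those of the controls, but the differences did not pass the adjusted threshold. DMH1 libraries held 5797 and 5283 counts, or 96.7 and 105 CPM, against 1646 and 1821 counts, or 83.1 and 77.1 CPM, in 0.2% DMSO. Both DMH1 libraries were above both controls, and the log2 difference was 0.32 (SE 0.104, 95% interval 0.05 to 0.59, adjusted p = 0.138 over 23345 transcripts, edgeR). In this comparison 2.69% of the transcripts were called, 1.24% higher and 1.45% lower. The fit held only 4 libraries, so the lack of a call says little about the gene. With limma on log2(TPM + 1) the difference was 0.09 (adjusted p = 0.645), on a scale where the median transcript with a mean of at least 5 TPM stood at −0.22. SB431542 libraries held 1783 and 2338 counts, or 101 and 106 CPM, against 1631 and 1208 counts, or 79.4 and 77.2 CPM, in 0.4% DMSO. These groups did not overlap either, with a log2 difference of 0.41 (SE 0.111, 95% interval 0.15 to 0.66, adjusted p = 0.280), where 0.555% of the transcripts were called. The intervals of single transcripts are not adjusted for the number of transcripts tested.

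The 3 control conditions did not separate for *bmp2/4*. The 0.2% DMSO libraries averaged 80.1 ± 4.19 CPM, the mock libraries 78.7 ± 0.0116 CPM and the 0.4% DMSO libraries 78.3 ± 1.58 CPM (SD, n = 2 each), and their ranges overlapped. The log2 difference was 0.03 for 0.2% DMSO against 0.4% DMSO (95% interval −0.21 to 0.27, adjusted p = 0.892) and 0.01 for mock against 0.4% DMSO (95% interval −0.23 to 0.24, adjusted p = 0.978, edgeR on all 14 libraries). On log2(TPM + 1) these differences were 0.21 and 0.19, beside medians of 0.20 and 0.18 over transcripts with a mean of at least 5 TPM. Of all 24859 transcripts tested, 13.8% were called in the first of these comparisons, 6.36% higher and 7.43% lower, and 30.5% in the second, 15.2% higher and 15.3% lower. From low to high, *bmp2/4* was thus ordered as rBMP4, rActivin A, the controls, and then DMH1 at 101 ± 5.69 CPM and SB431542 at 104 ± 3.69 CPM, with overlapping ranges within the controls and between the inhibitors.

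The second ligand, *bmp5-8*, moved less and in another order. After rBMP4 it held 2998 and 3563 counts, or 169 and 154 CPM, against 3968 and 3137 counts, or 153 and 137 CPM, in mock embryos. Both rBMP4 libraries were above both mock libraries by a small margin, and the log2 difference of 0.17 did not pass the test (SE 0.0899, 95% interval −0.04 to 0.37, adjusted p = 0.919, edgeR). The interval excludes a decrease of the size seen for *bmp2/4* in the same libraries.

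After rActivin A, *bmp5-8* held 1998 and 1063 counts, or 119 and 110 CPM, against 153 and 137 CPM in mock embryos. It fell by 0.34 on the log2 scale (SE 0.0908, 95% interval −0.55 to −0.14, adjusted p = 0.0230, edgeR), within a comparison in which 15.9% of all transcripts were called lower. This call rested on single libraries, since the adjusted p was 0.152 (log2 change −0.26) without mock replicate 1 and 0.100 (log2 change −0.29) without rActivin A replicate 2. It was 0.0773 in a fit of the 4 libraries compared. Against rBMP4, the rActivin A libraries were lower in *bmp5-8* by 0.51 on the log2 scale (SE 0.0910, 95% interval −0.72 to −0.30, adjusted p = 0.0051), where 15.0% of all transcripts were called lower.

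The inhibitors gave *bmp5-8* values close to those of their controls. DMH1 libraries held 6431 and 5582 counts, or 107 and 111 CPM, against 2091 and 2121 counts, or 106 and 89.8 CPM, in 0.2% DMSO (log2 difference 0.15, 95% interval −0.15 to 0.44, adjusted p = 0.481, edgeR). SB431542 libraries held 2129 and 2769 counts, or 121 and 126 CPM, against 2299 and 1941 counts, or 112 and 124 CPM, in 0.4% DMSO, and these ranges overlapped (log2 difference 0.07, 95% interval −0.14 to 0.27, adjusted p = 1, edgeR). Neither was called, and the intervals leave room for changes of up to 0.44 and 0.27. For DMH1 the log2 difference was 0.25 without 0.2% DMSO replicate 1, 0.030 without 0.2% DMSO replicate 2 and −0.070 with limma on log2(TPM + 1), on the same shifted scale. Leaving out 0.4% DMSO replicate 1 turned the SB431542 difference to −0.0098, and leaving out the other 0.4% DMSO library gave 0.14.

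Unlike *bmp2/4*, *bmp5-8* differed among the controls. Mock libraries averaged 145 ± 11.2 CPM and 0.4% DMSO libraries 118 ± 8.53 CPM (SD, n = 2 each). The difference of 0.30 on the log2 scale was called (95% interval 0.08 to 0.52, adjusted p = 0.0446, edgeR), among 15.2% of all transcripts called higher. The call was lost with the replicate number as a block (log2 difference 0.30, adjusted p = 0.0533). It was also lost in 10 of the 14 fits that left out 1 library, among them those without mock replicate 1 (log2 difference 0.22, adjusted p = 0.257) and without 0.4% DMSO replicate 1 (0.23, adjusted p = 0.223). The 0.2% DMSO libraries, at 97.7 ± 11.1 CPM, were lower than 0.4% DMSO by 0.27 without passing the test (95% interval −0.50 to −0.05, adjusted p = 0.102). Without 0.2% DMSO replicate 1 that difference was −0.39 with an adjusted p of 0.0409. On log2(TPM + 1) it was −0.080 and that of mock against 0.4% DMSO 0.48, where the medians over transcripts with a mean of at least 5 TPM were 0.20 and 0.18. These controls differ in solvent and some in the hour at which treatment began, and these cannot be told apart.

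From low to high the *bmp5-8* means were 97.7 CPM in 0.2% DMSO, 109 in DMH1, 115 in rActivin A, 118 in 0.4% DMSO, 123 in SB431542, 145 in mock and 162 in rBMP4. The ranges of neighbours overlapped from DMH1 through SB431542, and they did not overlap between 0.2% DMSO and DMH1, between SB431542 and mock or between mock and rBMP4.

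**Figure D2:**
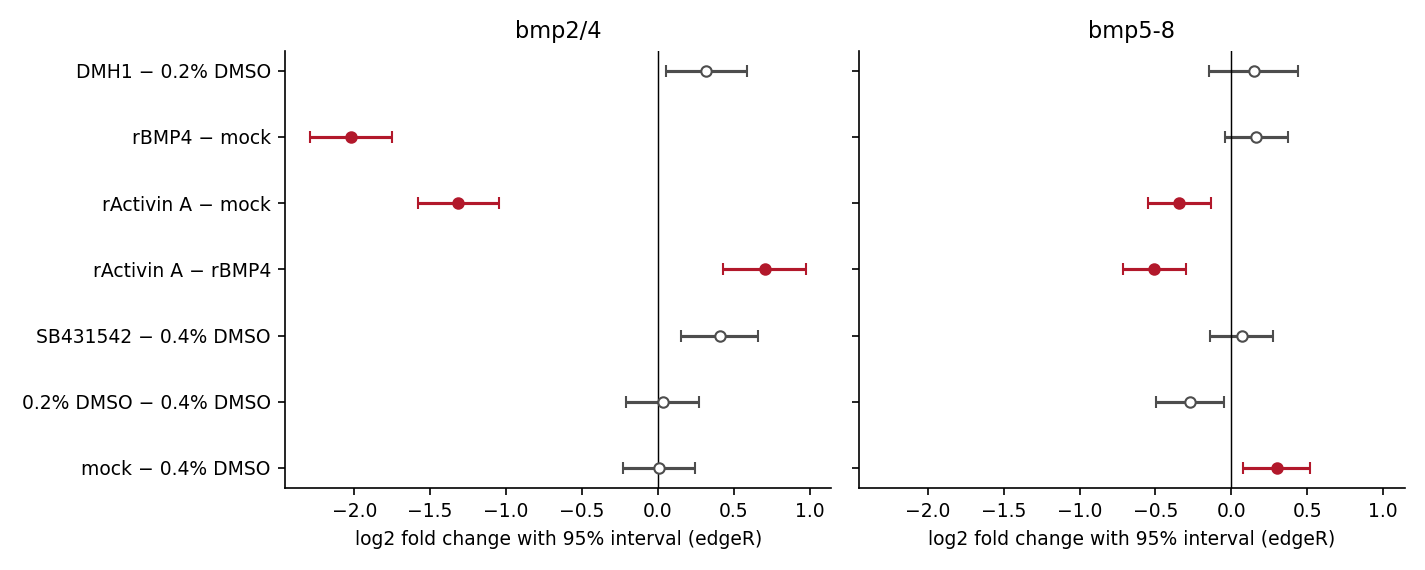
Log2 fold changes of *bmp2/4* (left) and *bmp5-8* (right) in 7 comparisons from edgeR's quasi-likelihood test, with bars for 95% intervals and filled red points for an adjusted p below 0.05. For *bmp2/4* the called differences are −2.02 and −1.32 against mock and 0.70 between the recombinant ligands, and for *bmp5-8* they are −0.34, −0.51 and 0.30.

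The ligands moved unequally, and their ratio differed between conditions, controls included. The ratio of *bmp2/4* TPM to *bmp5-8* TPM was taken within each library and so does not depend on scaling between libraries. It was 0.0525 and 0.0442 in the rBMP4 libraries and 0.107 and 0.121 in the rActivin A libraries, against 0.210 and 0.234 in the mock libraries. The difference of mean log2 ratios was −2.20 for rBMP4 against mock, a 4.60-fold lower ratio, and −0.96 for rActivin A against mock, a 1.95-fold lower ratio. The rActivin A ratio was 2.37-fold higher than the rBMP4 ratio.

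The inhibitor libraries stood at the other end of the range. The ratio was 0.367 and 0.385 after DMH1, against 0.320 and 0.351 in 0.2% DMSO, a log2 difference of 0.17 that was 0.099 without 0.2% DMSO replicate 1. It was 0.342 and 0.343 after SB431542, against 0.291 and 0.254 in 0.4% DMSO, a log2 difference of 0.34. Control ratios differed as well, with log2 differences of 0.30 for 0.2% DMSO against 0.4% DMSO and −0.29 for mock against 0.4% DMSO. In size, the 0.17 of DMH1 was below these and the 0.34 of SB431542 was close to them. The 2 groups did not overlap in any of the 7 comparisons, but with 2 libraries against 2 the exact two-sided permutation test gave its smallest possible p, 0.333, in each. Between conditions ordered by mean ratio, only the neighbours 0.2% DMSO (0.335 ± 0.0220) and SB431542 (0.343 ± 0.000743; SD, n = 2 each) had overlapping ranges.

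A single test over all 14 libraries asked whether libraries of 1 condition resembled each other more than other pairings would. Differences between the controls count in it as well, so a small p shows likeness of replicates and does not test an effect of treatment. Among all 135135 ways to arrange the libraries in 7 pairs, the share with a within-pair spread at or below that of the labelled pairs was 0.00029 for *bmp2/4*, 0.00043 for *bmp5-8* and 2.2e-05 for the ratio (exact permutation test, Benjamini-Hochberg adjusted p over 3 tests 0.00043, 0.00043 and 6.7e-05). Without the DMH1 and 0.2% DMSO libraries, the exact permutation p over 945 pairings was 0.0032, 0.012 and 0.0011 in the same order. The SD between condition means on the log2 scale was 0.93 for *bmp2/4*, against 0.11 within conditions, and 0.25 for *bmp5-8*, against 0.10 within conditions.

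**Figure D3:**
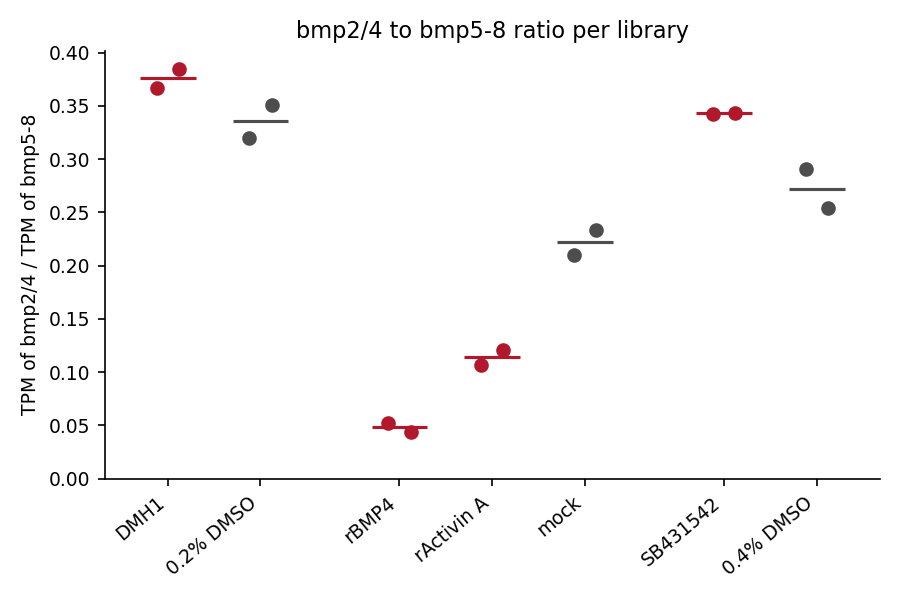
Ratio of *bmp2/4* TPM to *bmp5-8* TPM in each of the 14 libraries, with 1 point per library, a line at each mean, treated groups in red and controls in grey. The ratio runs from 0.0442 in an rBMP4 library to 0.385 in a DMH1 library, with the mock libraries at 0.210 and 0.234.

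The other BMP pathway genes that the study pairs with identifiers are the antagonist *chordin* (OFUSG13105.1), the receptors *bmpr1* (OFUSG18180.1) and *bmpr2* (OFUSG26337.1), and the signal transducer *smad1/5/8* (OFUSG02732.1). After rBMP4, 1 of these 4 was called higher and 1 lower with edgeR, beside 0.499% and 0.585% of all transcripts, and the median log2 difference over all 6 genes, ligands included, was 0.10 against 0.00 over all transcripts tested. *chordin* fell with *bmp2/4*, to 431 and 380 CPM after rBMP4 against 902 and 904 CPM in mock (log2 change −1.15, adjusted p = 0.00025, edgeR). *bmpr2* rose, to 103 and 90.2 CPM after rBMP4 against 61.9 and 62.9 CPM in mock (log2 change 0.64, adjusted p = 0.0088, edgeR), although limma on log2(TPM + 1) did not call it after either recombinant ligand. The values of *smad1/5/8* were 552 and 524 CPM after rBMP4 and 423 and 403 CPM in mock (log2 difference 0.39, adjusted p = 0.142 in edgeR and 0.0019 in DESeq2, which called it higher). DESeq2 thus called 4 of the 6 genes and 2.17% of all transcripts. The values of *bmpr1* differed by 0.03 and were called by neither tool.

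After rActivin A, again 1 of the 4 was called higher and 1 lower with edgeR, beside 13.4% of all transcripts called higher and 15.9% called lower, and the median over the 6 genes was −0.30 against −0.04 over all transcripts tested. *chordin* fell to 229 and 215 CPM, against 902 and 904 CPM in mock (log2 change −2.03, adjusted p = 1.1e-05, edgeR), and *bmpr2* rose by 0.46 (adjusted p = 0.0055). DESeq2 called *smad1/5/8* lower as well (log2 difference −0.26, adjusted p = 0.022, against 0.0686 in edgeR). It called 1 of the 6 genes higher and 4 lower, beside 13.6% and 16.6% of all transcripts, or 30.2% in either direction. *chordin* thus had a lower level after rActivin A than after rBMP4 (log2 difference −0.88, adjusted p = 0.00041), while *bmp2/4* had a higher one (0.70). In that comparison 2 of the 4 were called lower, beside 15.0% of all transcripts, the second being *smad1/5/8* (log2 difference −0.65, adjusted p = 0.0020), and the median over the 6 genes was −0.39 against −0.04 over all transcripts.

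With the inhibitors, edgeR called 0 of the 6 genes in either comparison, beside 2.69% of all transcripts for DMH1 and 0.555% for SB431542. At shares this small, 0 of 6 does not differ from the background. After DMH1, 3 of the 6 had an unadjusted p below 0.05, as had 26.4% of all transcripts. limma on log2(TPM + 1) called 0 of the 6 and 6.63% of all transcripts, and DESeq2 called 1 of the 6 and 17.1% of all transcripts, so that 1 of 6 is no more than the background. The gene DESeq2 called was *bmpr2*, which had 38.4 and 37.1 CPM after DMH1 against 54.4 and 52.8 CPM in 0.2% DMSO (log2 difference −0.52 with an adjusted p of 0.0661 in edgeR and −0.53 with 0.0031 in DESeq2). The median over the 6 was −0.14 against 0.00 over all transcripts. After SB431542, 3 of the 6 had an unadjusted p below 0.05, as had 7.19% of all transcripts, and limma on log2(TPM + 1) called 0 of the 6 and 0.405% of all transcripts. DESeq2 called 2 of the 6 and 1.90% of all transcripts, and its calls were *chordin* (log2 difference −0.33, adjusted p = 0.0055) and *smad1/5/8* (0.32, adjusted p = 0.034). The median over the 6 was 0.05 against 0.00 over all transcripts.

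Between the controls, *bmpr2* was called higher in 0.2% DMSO than in 0.4% DMSO (log2 difference 0.39, adjusted p = 0.014, edgeR), 1 of the 6 genes beside 6.36% of all transcripts called higher and 7.43% called lower. DESeq2 also called only *bmpr2* of the 6, beside 21.9% of all transcripts. With limma on log2(TPM + 1), *bmpr2* and *smad1/5/8* were called, beside 17.6% of all transcripts. Against 0.4% DMSO, mock libraries were called higher in 3 of the 6, *chordin* (0.70, adjusted p = 0.00048), *bmpr2* (0.61, adjusted p = 0.00046) and *bmp5-8* as above, while *bmp2/4* differed by 0.01. Of all transcripts, 15.2% were called higher and 30.5% in either direction. DESeq2 and limma on log2(TPM + 1) each called 4 of the 6 higher, the fourth being *smad1/5/8* (log2 difference 0.27, adjusted p = 0.018 in DESeq2). Of all transcripts they called 17.8% and 21.9% higher, and 35.0% and 34.0% in either direction. The medians over the 6 were 0.13 and 0.32, against 0.00 over all transcripts in both.

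**Figure D4:**
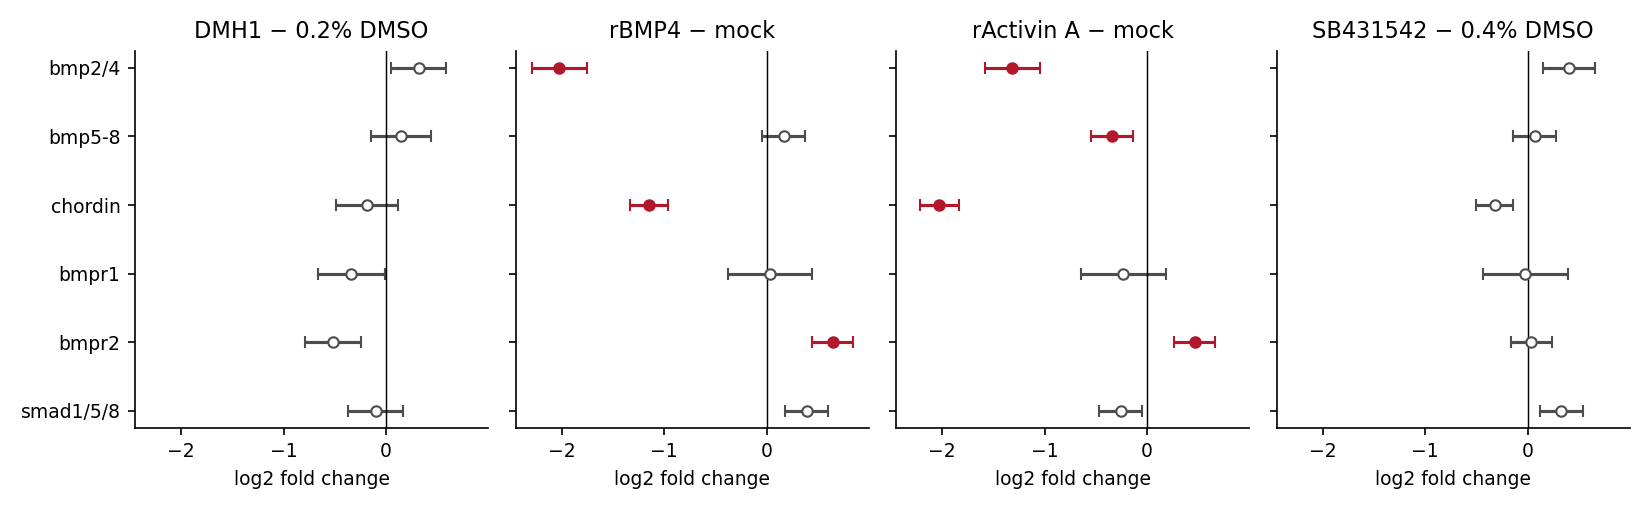
Log2 fold changes of 6 BMP pathway genes in the 4 comparisons of a treatment with its own control (edgeR), with bars for 95% intervals and filled red points for an adjusted p below 0.05. *bmp2/4* and *chordin* lie left of 0 and *bmpr2* right of 0 after both recombinant ligands, and no point is filled in the DMH1 and SB431542 panels.

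Across the 14 libraries, log2 CPM of *bmp2/4* and *bmp5-8* had a Pearson r of −0.50, given as a description only, since replicates share a condition and the conditions were few. With *bmp2/4*, *bmpr2* had an r of −0.91, rank 12414 of the 12424 transcripts of other genes with a mean of at least 5 CPM when these are ordered from the highest r, and *chordin* had an r of 0.51, rank 1894. The r of *bmp2/4* was −0.38 with *bmpr1* and −0.41 with *smad1/5/8*. For *bmp5-8* the r was 0.64 with *smad1/5/8* (rank 1341) and 0.52 with *bmpr2* (rank 2482). It was 0.27 with *chordin* (rank 4531) and 0.17 with *bmpr1* (rank 5169).

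The transcripts most like *bmp2/4* by the same measure were OFUSG15889.1 (r = 0.957) and OFUSG25241.1 (r = 0.939), which the files and tables used here do not name. OFUSG25241.1 had 21.2 and 20.3 CPM after rBMP4 and 14.5 and 17.8 CPM after rActivin A, against 89.2 and 79.6 CPM in mock, and its range in the other 8 libraries was 97.4 to 132 CPM. Unlike *bmp2/4*, it was lower in mock than in 0.4% DMSO (log2 difference −0.54, adjusted p = 0.0031, edgeR). OFUSG15889.1 had 77.1 and 72.3 CPM after rBMP4 and 90.1 and 78.2 CPM after rActivin A, against 154 and 143 CPM in mock. Both transcripts were lower after the recombinant ligands than in mock, as *bmp2/4* was, which follows from their having been picked for likeness to it.

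The transcripts most like *bmp5-8* were OFUSG06308.1 (r = 0.950) and OFUSG23411.1 (r = 0.949). OFUSG23411.1 had 120 and 117 CPM after rBMP4 and 58.1 and 67.5 CPM after rActivin A, against 95.2 and 94.8 CPM in mock, and 24.5 to 67.6 CPM in the other 8 libraries. OFUSG06308.1 had 38.3 and 32.3 CPM after rBMP4 and 15.6 and 15.0 CPM after rActivin A, against 30.3 and 33.0 CPM in mock, where the rBMP4 and mock ranges overlapped. Both were highest in the rBMP4 and mock libraries, as *bmp5-8* was, which follows from their having been picked for likeness to it.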

How the data were processed

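Libraries of whole *O. fusiformis* blastulae at 6 hpf were grouped by the labels into 7 conditions of 2 replicates. The authors trimmed the reads, assigned them to annotated transcripts with kallisto (version 0.46.2) and deposited, per library, estimated counts and TPM for each transcript. The authors' estimated counts are not normalized, and the deposited TPM values are scaled by effective length to a fixed total. The submitters' processing notes also name DESeq2 (version 1.26.0). For the counting, genome build and strand setting are not given in the sources used here. Of the 31978 transcripts in the DMH1 files and 31979 in all other files, only shared ones were kept, and this removed no more than 0.00365% of any library.

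Estimated counts were rounded, filtered with filterByExpr, scaled with TMM and tested with the quasi-likelihood test of edgeR (version 4.0.16, R version 4.3.3), adjusted over all transcripts tested and called at an adjusted p below 0.05 with no fold minimum. DMH1 and 0.2% DMSO (4 libraries, 23345 transcripts) were fitted alone, the other 10 libraries (23432 transcripts) together, and contrasts between controls came from all 14 libraries (24859 transcripts). The SE is the log2 change divided by the square root of F, and intervals use the total degrees of freedom of the fit. Ratios used TPM. The script was tested on simulated counts. Total counts ranged from 9416563 to 59915591, and the Poisson 95% half-width of a ligand count was between 2.45% and 11.3% of it, which covers counting error only.

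Alternatives were DESeq2 (version 1.42.0), its size factors in edgeR, no filter, gene sums, other sets of libraries, the replicate number as a block, a fold minimum and leaving out each library. log2(TPM + 1) with limma (version 3.58.1) was chosen after seeing the data. The genes named are the ligands, the other pathway genes the study pairs with identifiers and, per ligand, the 2 transcripts of other genes with the highest Pearson r of log2 CPM (prior count 2) among those with a mean of at least 5 CPM. The members and lists were chosen with earlier results of these data known.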

Additional observations from a re-analysis of the deposited data

How the results depend on the processing

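Of 264 alternative values of the 14 ligand fold changes, 240 kept direction and call. Many of these could hardly differ. The fold minimum reuses the main fit, gene sums hold the same ligand counts, and many omitted libraries lie outside the comparison. All 49 alternatives of the 7 ratio differences kept their direction. Most could not turn, since gene sums repeat the main value and leaving out 1 library cannot reverse groups that do not overlap. Without 1 library the log2 ratio difference ranged from 0.099 to 0.23 for DMH1, 0.21 to 0.40 for 0.2% DMSO against 0.4% DMSO and −0.39 to −0.20 for mock against 0.4% DMSO. For *bmp2/4* the change after rBMP4 ranged from −2.22 to −1.85 and that after rActivin A from −1.33 to −1.26 over their alternatives, with adjusted p at most 0.0018 and 0.0047.

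On the TPM scale, the median transcript with a mean of at least 5 TPM was shifted relative to CPM by −0.21 for DMH1 against 0.2% DMSO, 0.19 for 0.2% DMSO against 0.4% DMSO and 0.19 for mock against 0.4% DMSO. The difference of *bmp5-8* after DMH1 was then −0.070 and that of *bmp2/4* 0.09, beside a median of −0.22 over those transcripts. With limma on TPM the share of calls that were higher was 27.6% against 46.1% for DMH1, 56.1% against 46.1% for rBMP4, 68.5% against 46.1% for 0.2% DMSO against 0.4% DMSO and 64.5% against 49.8% for mock against 0.4% DMSO.

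With a log2 minimum of 1, the calls of *bmp5-8* after rActivin A (−0.34) and in mock against 0.4% DMSO (0.30), and of both ligands in rActivin A against rBMP4 (0.70 and −0.51), were lost. Fits of only 4 libraries lost *bmp5-8* after rActivin A (−0.34, adjusted p = 0.0773) and in mock against 0.4% DMSO (0.30, adjusted p = 0.0578). The replicate number as a block lost the call of *bmp5-8* in mock against 0.4% DMSO (0.30, adjusted p = 0.0533) and changed no other ligand call. Same-numbered libraries did not deviate together (correlations −0.018 to 0.047), so the block pairs nothing known.

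Leaving out 1 library gave *bmp5-8* values of 0.030 to 0.25 for DMH1, 0.077 to 0.24 for rBMP4, −0.44 to −0.26 for rActivin A against mock, 0.22 to 0.38 for mock against 0.4% DMSO, −0.39 to −0.16 for 0.2% DMSO against 0.4% DMSO and −0.0098 to 0.14 for SB431542, the lowest without 0.4% DMSO replicate 1. For *bmp2/4* it gave −0.022 to 0.084 for 0.2% DMSO against 0.4% DMSO and −0.012 to 0.030 for mock against 0.4% DMSO, the lowest without 0.2% DMSO replicate 1 and without 0.4% DMSO replicate 2. The cause of these changes was not tested.

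The number of transcripts called, which is the background of the ligand calls, was 627 for DMH1. It was 3762 with DESeq2, 2664 for gene sums, 3810 in the fit of all libraries, 1548 with limma on TPM, 363 with the fold minimum, 0 with the replicate block and 0 to 3483 without 1 library. At an unadjusted p below 0.05 edgeR had 6160 transcripts for DMH1, 5018 with the block, and 2806 and 2770 without DMH1 replicate 1 and replicate 2, the libraries without which it called 0. For rBMP4 (254) it was 490, 540 and 162 under the first 3 of these, 455 with only 4 libraries and 111 to 359 without 1 library. For SB431542 (130) it was 418, 279 and 51, 86 with the block, 86 with the fold minimum, 73 with only 4 libraries and 60 to 210 without 1 library. For rActivin A against mock (6856) it was 3178 with the fold minimum, 4246 with only 4 libraries and 3256 to 7062 without 1 library. For rActivin A against rBMP4 (6449) these were 2861, 3811 and 2848 to 6502, and for 0.2% DMSO against 0.4% DMSO (3428) 1215, 117 and 862 to 4008. For mock against 0.4% DMSO (7590) they were 3543 with the fold minimum and 4256 to 8344 without 1 library.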
